A study of Mus musculus with 18 samples.

Results

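Foxp3-negative CD4+ T cells sorted from B16 tumours were compared with Foxp3-negative CD4+ T cells sorted from spleen and lymph nodes. The comparison rests on 4 of the 18 arrays of the series, chosen by title: 2 arrays titled B16_Teff and 2 titled Spl_Teff. B16 is a mouse melanoma line. All 4 samples came from Foxp3GFP mice, in which cells that make Foxp3, the transcription factor of regulatory T cells (Treg), carry a green fluorescent protein. The mice were 6 to 8 weeks old, CD4 cells were taken by positive selection on Dynal beads and sorted in a double pass on the fluorescence, and total RNA was extracted with Trizol, labelled with biotin and hybridised to an Affymetrix array. The samples differ by label only in the tissue of origin. They are called tumour Teff 1 and 2 and lymphoid Teff 1 and 2 here, after the replicate number in the title. Whether replicates came from separate animals or from pools, how the tumour was grown and for how long, and which sex the mice were is not in the labels, so p-values measure only the spread between these samples.

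CD4+ T cells outside the Treg lineage recirculate through spleen and lymph nodes, many of them in a quiescent state kept by factors such as Tcf7, Lef1 and Id3. After contact with antigen they become helper cells of several kinds. Follicular helper cells (Tfh), guided by Bcl6 and Cxcr5, stay in lymphoid tissue and help B cells through interleukins 21 and 4, while type 1 helper cells (Th1), guided by Tbx21, make interferon gamma and carry chemokine receptors that take cells into inflamed tissue.

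The 4 groups of the table, these 2 and the corresponding Treg groups, were fitted together on 8 arrays, and the Treg arrays enter the present contrast only through the estimate of the spread. Array medians of the deposited log2 values ran from 5.86 to 5.89, replicates of a group correlated at 0.9958 to 0.9970 across probe sets, and tumour with lymphoid Teff arrays at 0.9818 to 0.9841. Foxp3, the gene that the sort was to leave out, read 3.19 and 3.05 on lymphoid Teff 1 and 2 and 3.18 and 3.13 on tumour Teff 1 and 2. Its log2 difference of 0.03 (SE 0.09) was smaller than the spread between arrays. General T cell markers were high on all 4 arrays, Cd3d between 12.32 and 12.65 and Cd4 between 8.27 and 8.50, and 0 of 9 passed the test in either direction (1 higher and 4 lower at an unadjusted p under 0.05, among them Cd3d at -0.29). On the arrays labelled tumour Treg, Foxp3 read 3.20 and 3.30 against 9.99 and 9.95 in lymphoid Treg, against the label, whereas the summed signal of 17 Treg core genes went with it, at 39084.3 and 36416.1 on those arrays, 26726.8 and 26850.4 in lymphoid Treg and 5488.9 to 9790.8 on the 4 Teff arrays. Of these 17 genes, 9 were called higher and 4 lower in tumour Treg than in lymphoid Treg. Gpr83 (-4.91) and Izumo1r (-1.84) fell there beside Foxp3. A low Foxp3 reading alone does not show that Treg transcripts were absent from a tumour array.

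Sex-linked transcripts separated the tissues completely. Xist, the RNA that silences 1 X chromosome in female cells, read 10.65 and 10.57 in lymphoid Teff against 2.45 and 2.54 in tumour Teff. Ddx3y, on the Y chromosome, read 2.66 and 2.65 against 10.29 and 10.32, and the Y-linked Eif2s3y, Kdm5d and Uty rose with it. The lymphoid arrays thus hold female and the tumour arrays male RNA, and sex and tissue cannot be told apart in any result that follows. Of 445 genes on the X chromosome 59 passed the test (13.3%), a share close to that of all genes.

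In all, 1980 of 13233 genes passed at an adjusted p under 0.05 (15% of genes), 974 higher in tumour Teff (7.36%) and 1006 lower (7.6%). Every adjusted p given here comes from limma with Benjamini-Hochberg adjustment over all 22626 probe sets tested. The large changes ran mostly upwards: 414 genes (3.13%) passed with a difference of at least 2-fold, 336 of them higher and 78 lower. The median log2 difference over all genes was -0.04. Counted by probe set, 14% passed (6.96% higher, 7.08% lower), and 2.88% with at least 2-fold. Without lymphoid Teff 1 the called genes were 944 (537 higher, 407 lower) and without lymphoid Teff 2 they were 929 (524 higher, 405 lower). Without tumour Teff 1 they were 1292, with 543 lower, and without tumour Teff 2 the lower calls were 599. Arrays of the groups failed to overlap in 57.9% of all genes, so separation of 2 arrays from 2 is common in these data and carries little weight by itself.

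The largest rises were led by genes of melanin synthesis, matrix and vessels, with effector genes of T cells among them. Dct, an enzyme of melanin synthesis, read 3.56 and 4.15 in lymphoid Teff and 10.31 and 9.12 in tumour Teff, a log2 difference of 5.86 (SE 0.36, adjusted p = 5.55e-05). Tyrp1, of the same pathway, rose by 3.75, and the probe set that the files name MELA, after melanoma antigen, by 3.79. All 3 were higher on tumour Teff 1 than on tumour Teff 2.

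The opposite order held for matrix and vessel genes. Col3a1, a fibrillar collagen, read 6.33 on tumour Teff 1 and 9.05 on tumour Teff 2 against 3.88 and 3.50 (difference 4.0, SE 0.81, adjusted p = 0.0135). Its call ended without lymphoid Teff 1 (adjusted p = 0.0638) and without lymphoid Teff 2 (adjusted p = 0.0846). Rgs5, a regulator of G protein signalling known from pericytes, read 5.93 and 7.91 against 3.60 and 3.10. Igfbp3, a secreted binding protein of insulin-like growth factors, rose by 4.44, Fabp4, a fatty acid carrier of adipocytes, endothelium and macrophages, by 4.30, the basement membrane collagen Col4a1 by 4.19 and the matrix protein Sparc by 3.95. Every 1 of these matrix and vessel genes was higher on tumour Teff 2 than on tumour Teff 1.

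Gzmb, the cytotoxic protease granzyme B, differed from them in that its arrays of a group lay close together. It read 5.57 and 5.56 in lymphoid Teff and 9.18 and 9.38 in tumour Teff, a 13.1-fold difference (log2 3.71, SE 0.14, adjusted p = 3.59e-06). Fgl2, a secreted fibrinogen-like protein, read 5.39 and 5.42 against 8.78 and 8.81 (difference 3.39, SE 0.09, adjusted p = 3.23e-07). Serpinb1a, an inhibitor of serine proteases, read 4.94 and 4.77 against 8.23 and 8.57 (difference 3.55, SE 0.14, adjusted p = 4.09e-06).

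Among the 12 largest falls were 5 genes of the Tfh list or of the cytokines such cells make. Sostdc1, a secreted antagonist of bone morphogenetic proteins that Tfh cells express, had the largest of these falls. It read 9.60 and 9.25 in lymphoid Teff and 4.69 and 4.06 in tumour Teff, a 33.2-fold difference (log2 -5.05, SE 0.20, adjusted p = 4.07e-06). Pou2af1, a transcriptional coactivator of B and Tfh cells, read 8.15 and 8.00 against 4.56 and 4.32 (difference -3.63, SE 0.12, adjusted p = 2.27e-06). The interleukin genes Il21 and Il4 and the chemokine receptor gene Cxcr5 are described with their lists.

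The other named falls were Dtx1, a ubiquitin ligase tied to Notch signalling (difference -2.47), Art2b, an ADP-ribosyltransferase of the T cell surface (-2.30), H2-Q1, a class I histocompatibility gene (-3.17), Stfa3, an inhibitor of cysteine proteases (-2.52), Lratd1 (-2.38), Jchain, which joins antibody subunits (-3.64), and Dcpp3, a salivary protein (-3.80). In the last of these the replicates parted widely. Dcpp3 read 7.90 on lymphoid Teff 1 and 10.04 on lymphoid Teff 2, against 5.25 and 5.08 in tumour Teff. The call of Jchain, which read 6.94 and 7.72 against 3.47 and 3.90, ended without lymphoid Teff 2 (adjusted p = 0.0562).

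**Figure D1:**
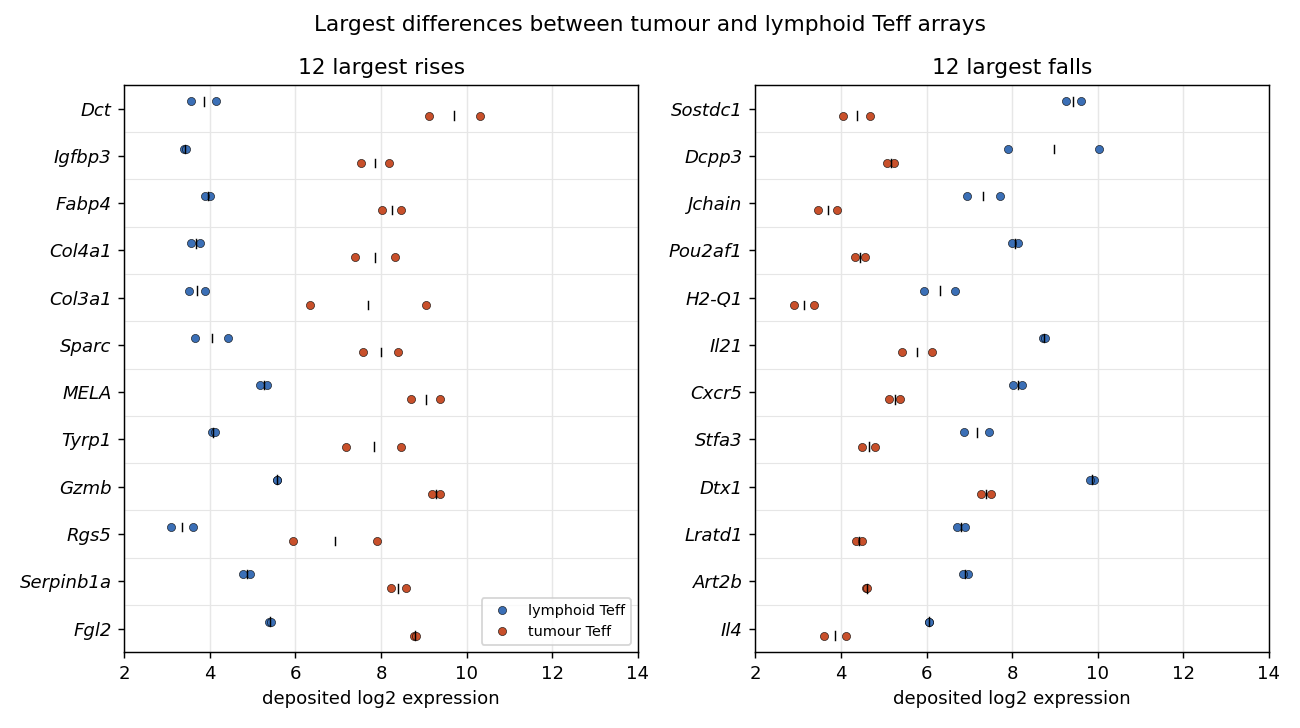
Deposited log2 expression of the 12 genes with the largest rises and the 12 with the largest falls, 1 point per array (2 a group) and a bar at the group mean. Gzmb, Fgl2 and Serpinb1a show tight replicates, while Col3a1, Rgs5 and Dcpp3 show a wide gap between replicates of 1 group.

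Transcripts of other cell types moved with the tissue, and their part in the results that follow was not tested. Each list count below is to be read beside the 7.36% of all genes called higher and the 7.6% called lower. On summed linear signal, 9 melanoma and melanocyte genes came to 257.0 to 262.6 on the lymphoid Teff arrays and to 1274.2 to 2554.2 on the tumour Teff arrays, and 7 of 9 rose, among them Pmel (difference 3.16) and Gpnmb (1.32), whereas Sox10 was at 0.07. Of 10 stromal markers 6 rose (from 187.3 to 207.7 up to 586.9 to 1558.4). So did 4 of 9 endothelial markers (421.8 to 444.7 against 636.8 to 680.4), with the endothelial cadherin Cdh5 at 2.47. Of these 4 endothelial markers, 2 read higher on tumour Teff 1. The endothelial sum was 680.4 on that array and 636.8 on tumour Teff 2. Stromal markers called higher numbered 1 without lymphoid Teff 1, 2 without lymphoid Teff 2 and 3 without tumour Teff 2, and melanoma markers 4 without either lymphoid Teff array.

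The marker list with the largest median change was that of plasmacytoid dendritic cells, which make type I interferon. Of its 14 members 12 rose and 0 fell, with a median difference of 2.07, and the summed signal went from 3082.0 to 3364.3 in lymphoid Teff up to 16578.9 on tumour Teff 1 and 9808.1 on tumour Teff 2. Irf8, a transcription factor of dendritic cells, read 8.50 and 8.61 against 11.26 and 10.33, and Tcf4, which specifies the plasmacytoid lineage, read 7.65 and 7.89 against 10.35 and 9.42. All 12 called members were higher on tumour Teff 1, and without that array 1 member was called lower. Tlr9, which these cells use to sense DNA, stayed near 4 on every array (4.39 and 4.28 against 4.17 and 4.55) and did not pass.

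Both CD8 chains rose, Cd8a by 1.22 and Cd8b1 by 1.80, and were higher on tumour Teff 1 than on tumour Teff 2. Without lymphoid Teff 2 only 1 of the 2 was called. Of 8 natural killer cell markers 4 rose, led by the activating receptor gene Klrk1, which read 4.90 and 4.90 against 7.64 and 8.07, and by Klrc1 (difference 2.76). Ncr1, a defining receptor of natural killer cells, was not called (-0.20). Of 20 macrophage and dendritic cell markers 5 rose, with the signalling adaptors Tyrobp (2.0) and Fcer1g (1.70) and the lysosomal Cd68 (1.85) in front, and 2 fell, the lysozyme gene Lyz2 (-1.79) and Csf1r (-1.09). The 5 rises became 2 without lymphoid Teff 1 and 3 without lymphoid Teff 2 or tumour Teff 1, and the 2 falls became 0 without either lymphoid Teff array and 1 without either tumour Teff array. B cell markers gave 0 higher and 2 lower of 14, Cd22 (-1.24) and Ighm (-0.77), with Cd79a at or under 4.08 on all 4 arrays. Without tumour Teff 2 the B cell markers gave 3 higher, and without lymphoid Teff 2 or tumour Teff 1 they gave 1 lower. Of 5 plasma cell markers 2 rose and 1, Jchain, fell (0 without lymphoid Teff 2). Of the neutrophil, mast cell, erythroid and innate-like T cell markers 0 passed at an adjusted p under 0.05, and 1 neutrophil, 1 erythroid and 1 innate-like marker were lower at an unadjusted p under 0.05. Over the alternatives, up to 2 neutrophil markers and up to 1 innate-like marker passed as lower. The 7 keratinocyte markers gave 1 higher, Perp (0.78), and 1 lower, Krt10 (-0.81), the latter not called without lymphoid Teff 2.

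Salivary gland transcripts were found on the lymphoid arrays, unevenly. Mucl2, a mucin-like secreted protein, read 9.38 on lymphoid Teff 2 and 2.98 on lymphoid Teff 1. Prol1 read 7.12 on lymphoid Teff 2 and 2.60 on lymphoid Teff 1. The summed signal of 8 such genes, listed after their values had been seen, was 320.2 on lymphoid Teff 1, 2100.8 on lymphoid Teff 2 and 95.2 to 104.1 in tumour Teff. It was 6664.9 and 1771.0 in lymphoid Treg and 101.2 to 111.9 on the tumour arrays labelled Treg. In bulk RNA of this kind, fewer cells of a type and less RNA per cell cannot be told apart.

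**Figure D2:**
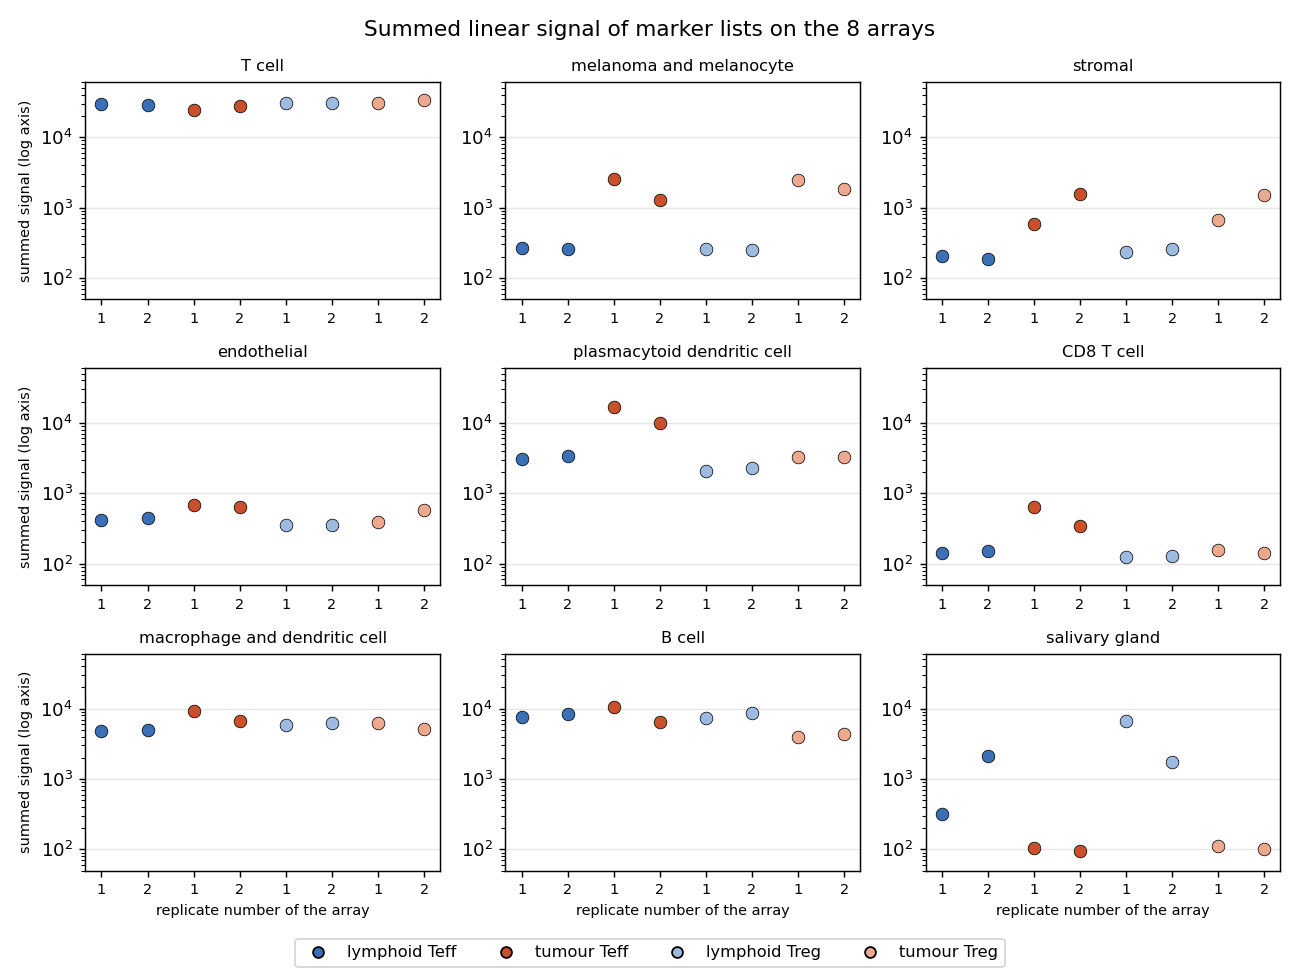
Summed linear signal (2 to the power of the deposited log2 value, log axis) of 9 marker lists on the 8 arrays, 1 point per array, ordered by group and replicate number. T cell markers are level across arrays; melanoma, stromal and plasmacytoid dendritic cell markers are high on tumour Teff arrays, the last of these most on tumour Teff 1.

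The helper lineage lists moved in opposite directions. Of 11 Tfh genes 9 fell and 2 rose (median difference -0.95), while of 18 Th1 genes 13 rose and 0 fell (median 1.01). Over all genes 7.36% were higher and 7.6% lower. The arrays labelled Treg moved the same way, with 8 Tfh genes lower and 2 higher (median -1.22). There 12 Th1 genes were higher and 0 lower (median 1.87), against 11.1% higher and 11.8% lower over all genes. For 5 Th1 genes the Teff effect was called below the Treg effect, and for 0 above it. Over the alternatives tried the Tfh list had 8 or 9 members called lower and the Th1 list 10 to 13 called higher, with 1 Th1 gene called lower without lymphoid Teff 2.

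Bcl6, the repressor that directs Tfh development, read 8.90 and 8.82 in lymphoid Teff and 7.74 and 7.77 in tumour Teff (difference -1.10, SE 0.11, adjusted p = 0.00051). Cxcr5, which guides cells to B cell follicles, read 8.22 and 8.03 against 5.13 and 5.39 (difference -2.87, SE 0.18, adjusted p = 6.33e-05). Il21, the cytokine through which these cells help B cells, read 8.73 and 8.76 against 6.13 and 5.42 (difference -2.97, SE 0.19, adjusted p = 6.7e-05). Lower too were Ascl2, a factor that induces Cxcr5, the surface glycoprotein Cd200, and Slamf6 and Sh2d1a of the SLAM adhesion pathway, by 0.54 to 0.95. The 2 members that rose, the inhibitory receptor Pdcd1 (difference 1.22) and the costimulatory receptor Icos (1.06), are also known from activated T cells in general.

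In the Th1 list the lineage's own transcription factor rose less than several receptors and chemokines. Tbx21 read 7.44 and 7.47 against 8.02 and 8.59 (difference 0.85, SE 0.20, adjusted p = 0.0234), and Ifng read 8.45 and 8.31 against 8.96 and 9.50 (difference 0.85, SE 0.23, adjusted p = 0.0404). Both were higher on tumour Teff 2. Cxcr6, a chemokine receptor of tissue T cells, read 8.30 and 8.37 against 11 and 11.39 (difference 2.86, SE 0.28, adjusted p = 0.000549).

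Ccl4, a chemokine, rose by 2.27, the interleukin-18 receptor chains Il18rap and Il18r1 by 2.13 and 1.62, and Bhlhe40, a transcription factor of cytokine-producing T cells, by 1.73. The interleukin-12 receptor genes Il12rb1 (0.82, SE 0.11) and Il12rb2 (0.59, SE 0.11) rose too, the first by about as much as Tbx21. Stat4, Hlx, Runx3 and Eomes were among those that did not pass, with differences from -0.41 to 0.33.

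Of 12 Th2 genes 4 rose and 1 fell. Il4, made by Th2 and Tfh cells, read 6.06 and 6.07 against 3.61 and 4.13 (difference -2.20, adjusted p = 0.000121), while Il5 and Il13 were at -0.01 and 0.02. The rises were those of Il1rl1, the receptor of interleukin-33, which read 5.46 and 5.23 against 7.69 and 7.58, of the growth factor gene Areg (1.45), of Ccr8 (0.98) and of the lineage factor Gata3 (0.58). Of 8 Th17 genes 4 rose and 0 fell. Rora, a nuclear receptor of that lineage, read 8.17 and 8.32 against 10.23 and 10.62, and Ahr, the aryl hydrocarbon receptor, 6.77 and 6.97 against 8.65 and 8.82. Il17a rose by 0.46 and Ccr6 by 0.80. Called rises of the Th2 list numbered 2 without lymphoid Teff 1 or tumour Teff 2, and those of the Th17 list 2 without lymphoid Teff 2.

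**Figure D3:**
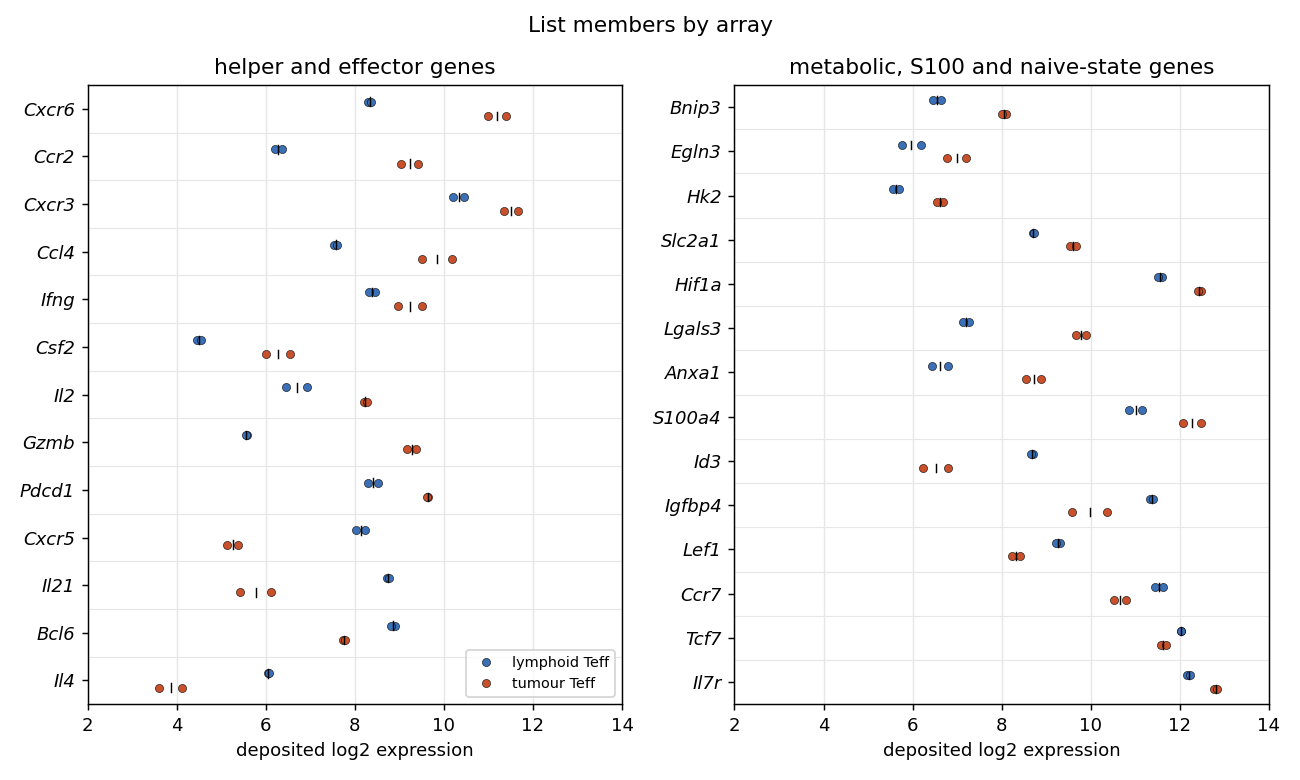
Deposited log2 expression by array (2 points a group, bar at the mean) of list members picked with their values known. Cxcr5, Il21, Bcl6 and Il4 are lower in tumour Teff and the chemokine receptor genes Cxcr6, Ccr2 and Cxcr3 higher; Bnip3, Egln3, Hk2, Slc2a1 and Hif1a are higher in tumour Teff by 0.88 to 1.5.

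Genes for secreted cytokines and chemokines changed in both directions, 9 higher and 3 lower of 20. Csf2, the granulocyte-macrophage growth factor, read 4.46 and 4.56 against 6.54 and 6.02 (difference 1.77, SE 0.21, adjusted p = 0.00126). Il2, the T cell growth factor, read 6.93 and 6.45 against 8.20 and 8.27 (difference 1.54, SE 0.22, adjusted p = 0.00273). The chemokine genes Ccl1 (2.01), Ccl3 (1.48) and Ccl5 (1.16) rose as well. The 3 that fell were Il21, Il4 and Csf1 (-0.69), and Tnf (-0.17) and Il10 (0.10) did not pass.

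Chemokine receptors gave 8 higher and 2 lower of 16, with a median difference of 0.66. Ccr2, which follows monocyte chemoattractants into inflamed tissue, read 6.20 and 6.37 against 9.05 and 9.42 (difference 2.95, SE 0.14, adjusted p = 1.43e-05). Cxcr3, the receptor of interferon-induced chemokines, read 10.45 and 10.21 against 11.35 and 11.67, and Cxcr4 rose by 0.71. Ccr9 read 8.73 and 8.78 against 11.84 and 10.81, and it belongs to the plasmacytoid dendritic cell list too. The 2 receptors that fell guide cells within lymphoid tissue: Cxcr5, given above, and Ccr7, which read 11.45 and 11.61 against 10.80 and 10.53.

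Cytotoxic effector genes gave 7 higher and 0 lower of 14. After Gzmb came Fasl, the death ligand (difference 1.57), Nkg7, a granule membrane protein (1.43), Gzma (1.18), the cathepsin Ctsw (1.16), Gzmk (1.01) and Gzmc (0.61). Prf1, the pore-forming perforin, went the other way and missed the threshold, at 6.88 and 6.71 against 6.44 and 6.30 (adjusted p = 0.0513). Gzmd, Gzme and Gzmf were at or under 2.85 on all 4 arrays. CD8 and natural killer cell markers, given above, moved in the same direction as these genes.

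Inhibitory receptors were split, with 6 higher and 4 lower of 15. Pdcd1 read 8.53 and 8.29 against 9.64 and 9.63 (adjusted p = 0.000226), and Ctla4 rose by 0.91, the ectoenzyme Entpd1 by 0.91 and the ligand Cd274 by 0.47. Lair1 and Cd244a also rose (2.32 and 1.13), both with the higher value on tumour Teff 1 and the first a member of the plasmacytoid list as well. Tox, a nuclear factor of exhausted T cells, fell from 9.77 and 9.75 to 8.88 and 8.91 (adjusted p = 0.00113), as did Cd160 (-1.42), Cd200 (-0.95) and Vsir (-0.45). Havcr2 (0.78, adjusted p = 0.0569) and Lag3 (-0.45, adjusted p = 0.221) were not called.

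Of 14 costimulatory receptors and ligands 6 rose and 2 fell. The rises were led by the tumour necrosis factor receptors Tnfrsf18 (1.5), Tnfrsf4 (1.07) and Tnfrsf9 (0.88), and Cd27, which naive and memory cells carry, fell by 1.06. The 6 rises became 4 without lymphoid Teff 2, and the 2 falls became 1 without lymphoid Teff 1 or tumour Teff 1. Of 17 Treg core genes 10 rose and 3 fell, and the summed signal went from 5488.9 and 5579.7 in lymphoid Teff to 9486.0 and 9790.8 in tumour Teff. Socs2, a feedback inhibitor of cytokine signalling, read 6.38 and 6.57 against 8.53 and 8.70, and Itgae, an integrin chain of epithelial T cells, 4.46 and 4.33 against 5.29 and 6.13. Capg (1.20), Klrg1 (1.18) and the receptor genes named above made up most of the rest. Izumo1r, the folate receptor of Treg and anergic cells, fell by 1.73, Gpr83 by 0.90 and Ikzf2 by 0.60. The list shares 7 of its 17 members with other lists, and many of its genes are also induced when conventional T cells are activated.

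Genes of the naive and quiescent state fell: 11 of 22 lower and 1 higher, with a median difference of -0.44. Id3, an inhibitor of basic helix-loop-helix factors, read 8.70 and 8.65 against 6.24 and 6.79 (difference -2.16, SE 0.33, adjusted p = 0.00386). The size varied widely within the list. Nsg2 fell by 1.5, Igfbp4 by 1.39, Actn1 by 1.13 and Lef1 by 0.93, whereas Tcf7, the partner of Lef1 in naive and memory cells, read 12.02 and 12.03 against 11.57 and 11.69 (difference -0.40, adjusted p = 0.0429). Il7r, the interleukin-7 receptor chain, was the member that rose (0.61), a call that ended without any 1 of the 4 Teff arrays. S1pr1 and Klf2, which keep cells in circulation through lymphoid tissue, did not pass, with differences of -0.11 and -0.17.

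Early response genes of the antigen receptor gave 9 higher and 2 lower of 26, and classic members were found on both sides of the threshold. Fosb rose by 0.55, Dusp2 by 0.70, Ier5 by 0.68 and Zfp36 by 0.55. Nr4a1 read 10.81 and 10.94 against 10.32 and 11.09 (adjusted p = 0.724), and Fos and Egr1 were at 0.04 and -0.31. Egr2, a factor tied to anergy and to Tfh cells, fell from 8.45 and 8.35 to 6.34 and 6.72 (difference -1.87, adjusted p = 0.000374), and Myc fell by 0.70. Rgs1, a brake on chemokine receptor signalling, rose from 10.25 and 10.38 to 12.26 and 12.40 (difference 2.01, adjusted p = 1.87e-05), and Tnfaip3, which limits NF-kappaB activity, from 8.74 and 8.66 to 10.75 and 10.34. Klf6 (0.89), Ier3 (0.90) and Fosl2 (0.83) rose less. Without lymphoid Teff 1 the 9 rises became 5.

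Of 16 NF-kappaB subunits and inhibitors 5 rose, with Nfkbiz (0.83) and Birc3 (0.64) after Tnfaip3, and 2 fell, the subunit Rel (-0.52) and the kinase Ikbkb (-0.35). The rises numbered 3 without lymphoid Teff 2 or tumour Teff 1, and the falls 0 without lymphoid Teff 1 and 1 without any other of the Teff arrays. Proximal signalling genes of the antigen receptor gave 0 higher and 2 lower of 21, Zap70 (-0.45) and Txk (-0.43). The share called lower was near the 7.6% of all genes, and 9 were lower at an unadjusted p under 0.05. The 2 falls became 0 without lymphoid Teff 1 and 1 without any other of the Teff arrays, and 7 at most over the alternatives tried.

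Genes of tissue residence and motility rose in part. Of 15 integrins and residency genes 5 were higher and 1 lower, Cd9 (-0.65), whose call ended without any 1 of the 4 Teff arrays. Prdm1, the repressor Blimp-1, read 6.28 and 6.17 against 7.89 and 8.21, and the adhesion receptor Cd44 10.35 and 10.30 against 11.37 and 11.26. Of 16 S100, galectin and annexin genes 9 were higher and 1 lower, with a median difference of 0.51. Lgals3, a galectin, read 7.27 and 7.14 against 9.67 and 9.88 (difference 2.58, SE 0.10, adjusted p = 4.07e-06), Anxa1 rose by 2.11, Anxa4 by 1.47 and S100a4 by 1.27. Anxa3 fell by 0.74, a call that ended without lymphoid Teff 2 or tumour Teff 1. On the same arrays 6 of 10 stromal markers were called higher, and of 20 macrophage and dendritic cell markers 5 higher and 2 lower. Their part in these changes was not tested.

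Genes of glycolysis and the hypoxia response gave 13 higher and 1 lower of 25, with a median difference of 0.35. The rises numbered 7 without lymphoid Teff 1, 8 without lymphoid Teff 2 or tumour Teff 1, and up to 15 over the alternatives tried. Bnip3, a mitochondrial protein that hypoxia induces, read 6.46 and 6.63 against 8.09 and 8.01 (difference 1.5, SE 0.20, adjusted p = 0.00195). Egln3, an oxygen-sensing hydroxylase, read 5.76 and 6.18 against 6.77 and 7.20 (difference 1.02, SE 0.22, adjusted p = 0.0172). Hk2, which starts glycolysis by phosphorylating glucose, read 5.56 and 5.69 against 6.68 and 6.54 (difference 0.98, SE 0.14, adjusted p = 0.00321).

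The glucose transporter gene Slc2a1 rose by 0.90 and Hif1a, the oxygen-regulated subunit of the hypoxia-inducible factor, by 0.88. Later steps of the pathway moved less, from 0.33 for Eno1 and Ldha to 0.63 for Pgam1, and Gapdh (0.25) and Pkm (0.19) did not pass. Pdk1, which keeps pyruvate out of mitochondria, was the member that fell (-0.74), with 0 members called lower without lymphoid Teff 2 or either tumour Teff array, and Vegfa (0.15) and Ddit4 (0.05) were not called. Melanoma transcripts were higher on the same arrays, and tumour cells use these genes too. Summed melanoma signal was 2554.2 on tumour Teff 1 and 1274.2 on tumour Teff 2. For the glycolysis and hypoxia list it was 31687.3 and 31097.1. A part of melanoma RNA in these rises was not tested.

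The hypoxia-inducible factor is known to bind DNA at the letters ACGTG. In RefSeq promoter windows of 300 bases (build GRCm38.p6, 250 before and 50 after the start), these letters stood on either strand in 20 of 34 windows of the 24 list genes with a window (58.8%). The share was 19.6% in all 32851 windows and 23.4% in those of genes on the array. In windows of all genes called higher it was 23.5%, near the share on the array, and in those of genes called lower 25.6%. Other lists also varied, with 38.5% for early response genes (55.6% of 9 windows for those called higher) and 34.8% for heat shock genes. It was 21.4% for cytotoxic and 10.5% for secreted cytokine genes. For glycolysis and hypoxia genes called higher it was 64.7% (11 of 17 windows), beside 58.8% for that whole list. That list was chosen for genes of glycolysis and the hypoxia response, so its high share cannot be read as a result of these data. The windows of the 3 members described in full are shown because each holds the letters, and all lie on the minus strand. Capitals mark each match, written as ACGTG or, where it lies on the opposite strand, as CACGT. That of Bnip3 (chr7:138909457-138909756) holds overlapping matches on both strands, that of Egln3 (chr12:54203825-54204124) 1 match, and that of Hk2 (chr6:82774405-82774704) 2.
Bnip3: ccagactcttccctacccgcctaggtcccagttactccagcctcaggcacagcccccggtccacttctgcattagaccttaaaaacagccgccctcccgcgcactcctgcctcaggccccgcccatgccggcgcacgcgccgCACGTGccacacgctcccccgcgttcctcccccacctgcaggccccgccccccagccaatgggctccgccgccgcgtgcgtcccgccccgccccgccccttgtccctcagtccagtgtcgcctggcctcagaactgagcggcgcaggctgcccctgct
Egln3: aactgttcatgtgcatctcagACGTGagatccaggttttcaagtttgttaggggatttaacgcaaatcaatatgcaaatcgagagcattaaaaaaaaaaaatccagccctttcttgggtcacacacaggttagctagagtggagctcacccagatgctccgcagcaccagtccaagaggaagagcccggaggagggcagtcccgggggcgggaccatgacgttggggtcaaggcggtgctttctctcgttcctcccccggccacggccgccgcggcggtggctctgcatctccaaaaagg
Hk2: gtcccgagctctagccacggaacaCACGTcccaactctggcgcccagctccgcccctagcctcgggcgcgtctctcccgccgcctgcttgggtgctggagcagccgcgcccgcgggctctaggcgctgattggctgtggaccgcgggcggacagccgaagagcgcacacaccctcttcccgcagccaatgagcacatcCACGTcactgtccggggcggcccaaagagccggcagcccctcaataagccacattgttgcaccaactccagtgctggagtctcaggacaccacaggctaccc

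A window was also read for Gzmb, the effector gene with the largest rise (chr14:56262285-56262584, minus strand). It holds 1 match to TGANTCA, the letters bound by AP-1, the dimer of Fos and Jun proteins, searched on both strands and shown in capitals. Such letters stood in 7.81% of all windows, 6.48% of those of genes on the array, 8.44% of those of genes called higher and 4.68% of those called lower. In the cytotoxic list 1 of 14 windows held them, that of Gzmb.
Gzmb: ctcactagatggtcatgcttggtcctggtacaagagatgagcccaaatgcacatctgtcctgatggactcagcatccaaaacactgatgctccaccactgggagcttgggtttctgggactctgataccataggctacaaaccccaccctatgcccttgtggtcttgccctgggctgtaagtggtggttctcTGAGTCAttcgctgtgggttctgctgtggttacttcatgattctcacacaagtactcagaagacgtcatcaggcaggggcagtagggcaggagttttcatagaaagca
A match describes these letters only, and binding was not measured.

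Genes of mitochondrial respiration gave few calls. Of 30 oxidative phosphorylation genes 0 rose and 1 fell, Cycs (-0.34), with 8 lower at an unadjusted p under 0.05. The count lower was 0 without either lymphoid Teff array or tumour Teff 2. A difference above 0 was seen in 3, and the median was -0.16, against -0.04 for all genes. Cell cycle genes gave 3 higher and 3 lower of 35, shares near the 7.36% and 7.6% of all genes. Mki67, a marker of dividing cells, read 7.97 and 7.90 against 8.16 and 8.44 (adjusted p = 0.103). Without lymphoid Teff 2 both counts were 0, without lymphoid Teff 1 they were 2 and 0, without tumour Teff 1 they were 2 and 1, and without tumour Teff 2 they were 1 and 1. Cdk1, Cenpa and Tk1 rose by 0.48 to 0.60, and the replication helicase genes Mcm3 and Mcm7 and the mitotic activator Cdc20 fell by 0.40 to 0.48.

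Interferon response genes gave 11 higher and 0 lower of 23 (median difference 0.37), and 6 higher without lymphoid Teff 1. Mx1, an antiviral GTPase, read 7.07 and 7.23 against 8.49 and 8.49 (difference 1.34, adjusted p = 0.000255), and Ifit3, an RNA-binding antiviral protein, 7.30 and 7.18 against 8.55 and 8.37. Bst2 (1.49) is shared with the plasmacytoid list and was higher on tumour Teff 1, at 8.96 against 7.91. Irf7 (0.40) and the GTPase genes Igtp (0.06) and Ifi47 (-0.10) did not pass.

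Heat shock and unfolded protein genes gave 2 higher and 2 lower of 22, shares near the 7.36% and 7.6% of all genes. Hsp90b1, a chaperone of the endoplasmic reticulum, rose by 0.56 and the transcription factor Xbp1, shared with the plasma cell list, by 1.06. Hspe1 (-0.66) and Dnajb1 (-0.66) fell, and the inducible Hspa1a and Hspa1b were at -0.22 and 0.02. The 2 falls became 0 without lymphoid Teff 1 and 1 without lymphoid Teff 2 or tumour Teff 1. Of 16 TGF-beta pathway genes 3 rose and 1 fell, led by the feedback inhibitor Pmepa1, which read 6.98 and 6.67 against 8.50 and 8.59. The 3 rises became 2 without either lymphoid Teff array, and the fall was not called without lymphoid Teff 1. Of 14 Bcl2 family genes 5 rose and 0 fell. The 5 take opposite roles, with Bcl2l1 (0.69), Bcl2l2 (0.65) and Mcl1 (0.39) protecting cells from death and Pmaip1 (0.87) and Bcl2l11 (0.57) promoting it. Without lymphoid Teff 1 the rises were 2.

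**Figure D4:**
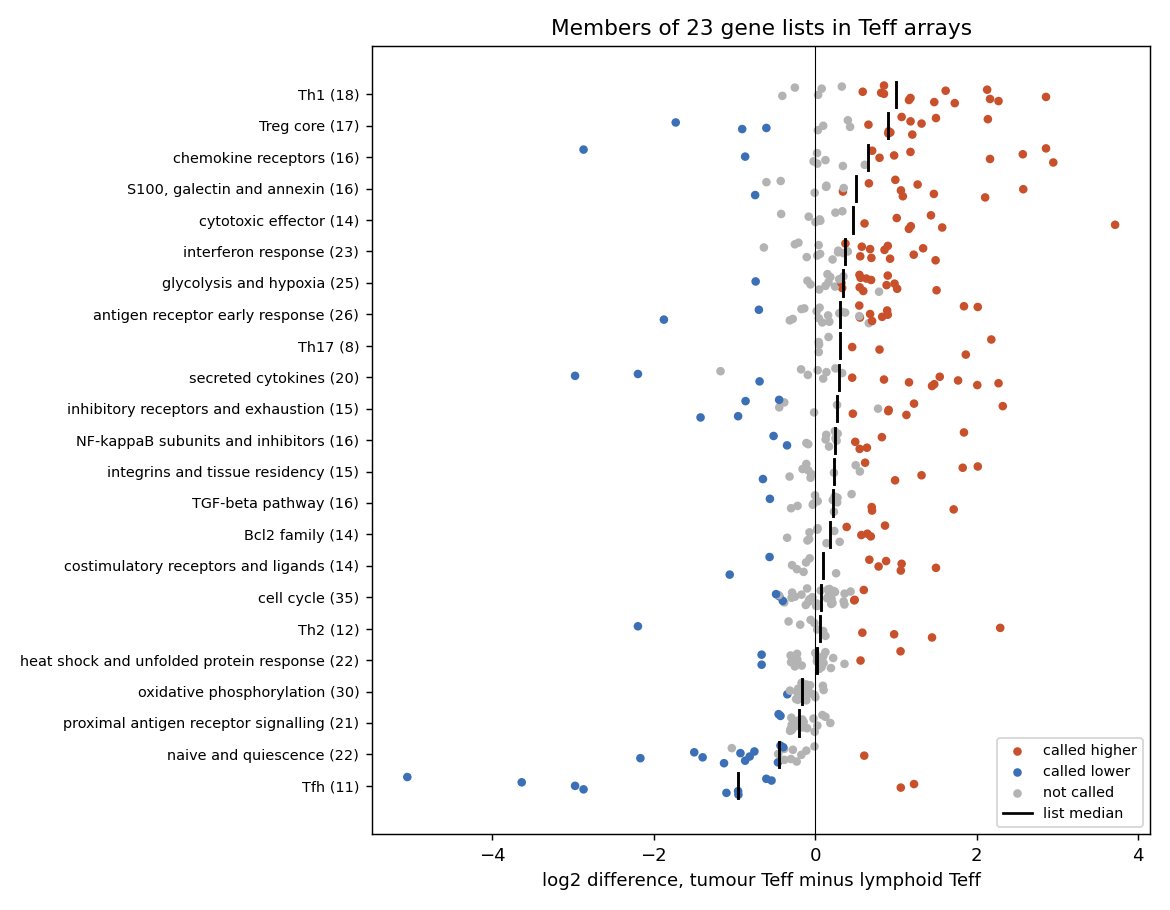
Log2 difference, tumour Teff minus lymphoid Teff, of each measured member of 23 gene lists (number measured in brackets), coloured by call at an adjusted p under 0.05, with a bar at the list median. The Tfh list lies lowest with a median of -0.95 and the Th1 list highest with 1.01; some members stand in several lists.

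The same tissue difference was measured on the arrays labelled Treg, which come from the same strain and share no array with the Teff contrast. They carry the same difference in sex-linked transcripts, and Foxp3 read low on their tumour arrays. Both contrasts use the same estimate of the spread for each probe set, so their calls are not independent. Deviations of same-numbered tumour Teff and tumour Treg arrays correlated at 0.18. Of the 974 genes higher in tumour Teff, 578 were also called higher on the tumour arrays labelled Treg, 59.3% of the Teff calls and 39.5% of the 1465 Treg calls, which make up 11.1% of all genes. Of the 1006 lower genes 597 were shared, 59.3% of the Teff calls and 38.4% of the 1556 Treg calls, which make up 11.8% of all genes. Calls in opposite directions were made for 33 genes higher and 26 genes lower in tumour Teff.

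A test of the difference between the 2 tissue effects called 731 genes (5.52%), with the Teff effect above the Treg effect in 383 (2.89%) and below it in 348 (2.63%). The count fell to 347 without lymphoid Teff 2, 386 without lymphoid Teff 1, 401 without lymphoid Treg 2, 424 without tumour Treg 1 and 484 without lymphoid Treg 1, and genes with the Teff effect below fell to 229 without tumour Treg 2.

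Several lists held many genes whose effect differed between Teff and Treg. Of 20 secreted cytokines 10 passed, 3 with the Teff effect above and 7 with it below. Of 22 naive genes 10 passed the test of the difference, 9 of them with the smaller fall in Teff: Tcf7 changed by -0.40 in Teff and -3.09 in Treg, Bach2 by -0.46 and -3.23. Of 25 glycolysis and hypoxia genes 9 passed, all with the smaller rise in Teff, and the list median was 0.35 in Teff and 1.12 in Treg. The plasmacytoid list had 9 of 14 members above in Teff, with medians of 2.07 and -0.52. The melanoma, stromal and endothelial lists had 0 members called by limma (2, 0 and 2 at an unadjusted p under 0.05), with medians of 1.32, 1.26 and 0.24 in Teff and 1.68, 1.18 and 0.72 in Treg.

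Effector genes differed gene by gene. Gzmb rose by 3.71 in Teff and 3.68 in Treg (adjusted p of the difference = 0.96), and Sostdc1 fell by 5.05 and 4.11 (adjusted p = 0.108). Ahr rose by 1.87 in Teff and was at 0.05 in Treg (adjusted p = 0.000957), and Klrk1 was at 2.95 and 0.20 (adjusted p = 0.000436). Il2 was at 1.54 and -0.07 (adjusted p = 0.0214). The reverse held for Nkg7, at 1.43 in Teff and 3.64 in Treg (adjusted p = 0.00162), for Cxcr6, at 2.86 and 5.43 (adjusted p = 0.00937), and for Pdcd1, at 1.22 and 2.49 (adjusted p = 0.00268).

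**Figure D5:**
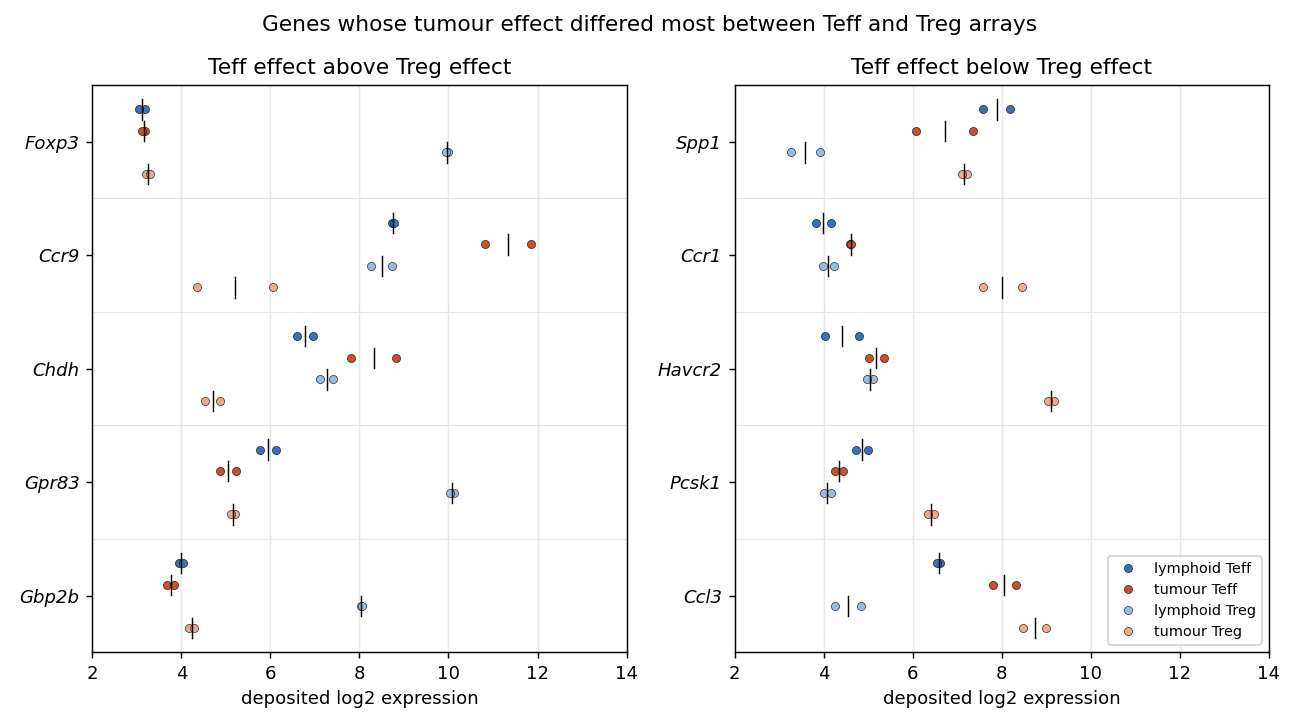
Deposited log2 expression on the 8 arrays (2 points a group, bar at the mean) of the 10 genes whose tissue effect differed most between Teff and Treg. Foxp3, Gpr83 and Gbp2b are high in lymphoid Treg only; Ccr9 and Chdh are higher in tumour than lymphoid Teff and lower on the tumour than the lymphoid arrays labelled Treg; Ccr1 and Havcr2 are high on the tumour arrays labelled Treg.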

How the data were processed

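Total RNA of sorted mouse CD4+ T cells was measured on Affymetrix arrays. The deposited log2 expression values per probe set come from RMA, run by the authors per the submitters' processing notes, with the version not given in the sources used here. RMA subtracts background, quantile-normalizes the arrays and summarises the probes of a set. No scanner intensities were used, so saturation and background were not assessed, and the normalization brings array medians together. The number of arrays limits the precision.

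Of 22690 probe sets, 64 controls were left out and 22626 tested. Names came from the gene columns of the authors' deposited table, updated through RefSeq (GRCm38.p6): 19498 by symbol, 543 by accession, 1160 by synonym, 396 as deposited and 1029 without a single name. That table's 21 value columns were not used. A gene is its probe set with the highest mean over 8 arrays (13233 genes). No listed gene had another probe set called in the opposite direction, but other probe sets did not always share the call. The call was shared by 0 of 4 for Mcm3 and 0 of 3 for Bcl2l1, Bcl2l2 and Csf1. It was shared by 0 of 1 for Ahr, Il1rl1, Cd8a, Cdh5, Zap70 and Egln3, against 5 of 5 for Igfbp4 and 3 of 3 for Hif1a.

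Groups came from titles and labels. limma 3.58.1 (lmFit, eBayes) in R 4.3.3 fitted 1 coefficient per group on 8 arrays, without a block (4 residual degrees of freedom, 8.3 with those borrowed across probe sets), with a threshold of adjusted p under 0.05. The fit was tested on simulated data. Named were Foxp3, the 12 largest rises and falls among called genes whose arrays do not overlap, and 5 genes in each direction for the test of the difference between Teff and Treg effects. Sex-linked genes, placeholder symbols and antigen receptor segments were left out of the rises and falls. Each list names up to 6 called members of largest size, and further members to state what was not called. Some were chosen after their values were seen, among them those in the plots by array and the printed promoters. Members, lists and alternatives were chosen with earlier results of these data known. The values of some list members are not reported here. Lists are described by counts beside those of all genes, with no test, and some share members. The 18 alternatives varied the arrays, block, summary, filter, centring, normalization, threshold and eBayes settings. Python 3.11.15, pandas 2.3.3 and matplotlib 3.10.9 were used for names, promoters and plots.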

Additional observations from a re-analysis of the deposited data

Results flagged for a closer look

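For 10 genes the difference between tissues was not the same in Teff and Treg by a test of the difference itself, and they had the largest such differences in either direction. They were named from 731 genes called. On the arrays labelled tumour Treg, Foxp3 read low, against the label. The summed signal of 17 Treg core genes was higher there than in lymphoid Treg. Of these genes 9 were called higher and 4, Foxp3 among them, lower.

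Foxp3 differed most: the Teff effect was 0.03, the Treg effect -6.72, and the difference between them 6.75 (adjusted p = 1.86e-07). Ccr9, a gut-homing receptor gene, changed by 2.57 in Teff and -3.30 in Treg (difference 5.87, adjusted p = 0.00357). Chdh, a choline dehydrogenase gene, changed by 1.55 and -2.56 (4.11, adjusted p = 0.00179). Both read higher on tumour Teff 1 than on tumour Teff 2 by at least 1 on the log2 scale. Ccr9 is a member of the plasmacytoid dendritic cell list, whose 12 called members had a median gap of 0.93 in the same direction. Gpr83, a receptor gene of Treg cells, changed by -0.90 and -4.91 (4.01, adjusted p = 0.000232). Gbp2b, an interferon-induced GTPase gene, was at -0.24 in Teff and -3.81 in Treg (3.57, adjusted p = 2.67e-05).

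In the other direction, Spp1, which encodes osteopontin, was at -1.17 in Teff and 3.57 in Treg (difference -4.74, adjusted p = 0.00314). Its tumour Teff arrays lay apart, at 6.07 and 7.36. The chemokine receptor gene Ccr1 was at 0.61 and 3.92 (-3.30, adjusted p = 0.00212). Havcr2, the inhibitory receptor TIM-3, was at 0.78 and 4.07 (-3.29, adjusted p = 0.00166). Pcsk1, a proprotein convertase gene, changed by -0.52 and 2.33 (-2.85, adjusted p = 0.000305). The chemokine gene Ccl3 rose in both, by 1.48 and 4.19 (-2.72, adjusted p = 0.00422).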

How the results depend on the processing

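Of 35 named values, 32 kept their side of the threshold under all 18 alternatives that gave a value. Of the called values 0 reversed direction. The Teff difference of Foxp3, which was not called, changed sign, with values from -0.04 to 0.10. With trend and robust eBayes, Col3a1 (adjusted p = 0.0959), Dcpp3 (0.0734) and Jchain (0.0588) were no longer called; the cause was not tested. At a threshold of 0.01 the called genes were 890 (513 higher, 377 lower), and those with a different effect in Teff and Treg 273 (154 above, 119 below, 225 at least 2-fold). With trend and robust eBayes the latter were 1108 (560 below). With probe sets above the median level only, fewer genes were tested and 265 passed at least 2-fold. Leaving out 1 array at a time, which leaves a group with 1 sample assumed to vary like the others, gave 929 to 1916 called genes (524 to 916 higher, 405 to 1000 lower, 375 to 470 at least 2-fold) and 347 to 707 for the difference between effects (187 to 411 above, 160 to 296 below, 270 to 423 at least 2-fold). The labels do not say that replicate numbers pair the samples. Deviations of same-numbered arrays correlated at -0.09 between lymphoid and tumour Teff, at 0.18 between tumour Teff and tumour Treg, whose stromal signal was higher on replicate 2 in both, and at -0.12 to 0.05 otherwise. With the replicate block 1772 genes were called, 1720 of them among the 1980, and 645 for the difference between effects. On the 4 Teff arrays alone 1600 genes were called. Centring on the 75th percentile moved the share of higher calls from 49.2% to 53.1%.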

Other observations

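The 2 tumour Teff arrays differed from each other in a set way. Of 336 genes called higher at least 2-fold, 30 read higher by at least 1 on tumour Teff 1 and 8 by at least 1 on tumour Teff 2. The 8 were Col3a1, Col6a3, Rgs5, Col1a2, Bgn, Fstl1, Postn and Serpine2, mostly genes of extracellular matrix, with a gap of up to 2.72 for Col3a1, and 0 of them differed in effect between Teff and Treg.

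Among the 30 were Dct and Tyrp1 of melanin synthesis and genes known from dendritic and B cells, such as Flt3, Clec10a, Blnk, Bcl11a, Mef2c and Cybb. Blnk, a signalling adaptor, read 9.08 and 7.74, and Clec10a, a lectin of dendritic cells, 9.34 and 8.26. For 14 of the 30 the Teff effect was called above the Treg effect. These genes were grouped after their values were seen, and no test was made of the grouping.

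Of the 13 Th1 genes called higher 2 read higher on tumour Teff 1, with a median gap between the arrays of -0.15, and of 7 cytotoxic genes 1 did, with a median gap of -0.20. The order was that of the 6 stromal genes called, of which 0 read higher on tumour Teff 1, with a larger median gap (-0.77). It was also that of the T cell markers (1 of 9, median gap -0.20). Other lists were mixed among their called rises: 5 of 9 secreted cytokines (0.14), 2 of 4 natural killer cell markers (0.15) and 3 of 8 chemokine receptors (-0.18) read higher on tumour Teff 1. Of the 336 genes called higher at least 2-fold, 194 did.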
